A study of Saccharomyces cerevisiae with 24 samples.

Results

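The genes described here encode the proteins of the cytosolic large ribosomal subunit of budding yeast. They were chosen by name, as loci whose standard symbol is RPL followed by a number, with or without A or B, or is RPP0, RPP1A, RPP1B, RPP2A or RPP2B. Of 81 such genes annotated in RefSeq's R64 assembly, 44 were among the 4442 gene pairs in the files, and the other annotated members were not analysed here. Messenger RNA was measured in a hybrid, the a/alpha diploid WL201 made from BY4741 and RM11-1alpha, and in a mixed culture (co-culture) of the haploids BY4741 and RM11-1a, which are both MAT-a. Each group had 12 libraries from 4 cultures labelled technical replicates, grown at 30 °C from an optical density of 0.1 and harvested at 1. The labels name no drug or other agent for either group, and WL201 is a single hybrid strain. Each read was assigned to the BY or the RM allele through bases that differ between the strains, so a count reflects the number of such bases as well as the amount of mRNA. Levels are therefore compared within a gene and never between genes.

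The large subunit joins amino acids into protein at its peptidyl transferase centre and releases the chain through an exit tunnel. A flexible stalk of P proteins on its side recruits the translation factors that hydrolyse GTP. Most of its proteins are encoded by duplicated genes, A and B, left from an ancient whole-genome duplication, and their transcription follows growth through TOR and protein kinase A signalling, with Rap1, Fhl1, Ifh1 and Sfp1 at the promoters.

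The promoters of the members were read from R64 over the 500 bases before each start codon. The letters ACCCNNACA, a core of the Rap1 site, were searched on both strands and occurred in 20 of 44 members, or 45.5%, against 5.45% of 6019 protein-coding genes. The 21 matches lay 162 to 452 bases before the start codon, with a median of 312. The consensus of Abf1, another general factor at such promoters, occurred in 9.09% of the members and in 16.7% of all promoters. A match is a description of these letters and not a binding site shown by these data. Windows around the match are shown for 3 members whose mRNA is described below, chosen for holding a match after their values were seen. RPL13A is the only member in the files with 2 matches, RPL36A had the largest rise with a match among members whose groups did not overlap, and RPL14A had a match and fell. The windows are chrIV:308113-308244 for RPL13A, chrXIII:650953-651021 for RPL36A and chrXI:431466-431534 for RPL14A, all on the plus strand, and capitals mark the matches. In RPL13A the first match is on the minus strand.
RPL13A: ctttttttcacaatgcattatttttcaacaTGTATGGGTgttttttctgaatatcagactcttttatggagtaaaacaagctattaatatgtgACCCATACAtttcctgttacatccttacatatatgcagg
RPL36A: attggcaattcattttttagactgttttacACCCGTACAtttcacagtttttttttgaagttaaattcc
RPL14A: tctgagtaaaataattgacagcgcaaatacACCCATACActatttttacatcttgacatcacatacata

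Duplicated members can be hard to tell apart by their reads. The sources used here do not say how reads that match both copies were counted. Values of members with a near-identical copy are therefore uncertain. Only 7 of 44 members have no A or B copy in the genome, namely RPL3, RPL5, RPL10, RPL25, RPL29, RPL39 and RPP0.

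The hybrid libraries held 165503 to 232428 reads and the co-culture libraries 199838 to 227175. Libraries of a group that differed by no more than sampling noise were summed and counted as 1 sample, which gave 6 summed libraries per group, numbered 1 to 6. They outnumber the 4 cultures, so n = 6 does not count independent cultures, and p-values measure only the spread between these libraries, which may be technical. The strain labels held for MET17, a gene BY4741 lacks. It had 0 BY reads in both groups, where a count of 0 allows up to 3, beside 149 RM reads in the hybrid, against 206 RM reads in the co-culture. The groups differ in ploidy, mating type and mixture at once, and these cannot be told apart. The summed level of 5 genes of mating type a cells was 113 to 159 CPM (reads scaled to a common library total) in the hybrid, against 10400 to 11120 in the co-culture, with MFA1 at 2 and 616 reads, and their part in the results below was not tested.

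Large subunit mRNA took a larger share of the hybrid's reads. The 44 members held 4.14 to 4.26% of the reads of a hybrid summed library, with a median of 4.24%, against 3.14 to 3.26% and a median of 3.24% in the co-culture. The ranges did not overlap. RPL3, RPL25, RPP1A and RPL14A, the members with most reads, accounted for 2.23 to 2.49% in the hybrid, against 1.77 to 1.85% in the co-culture, and the other 40 for 1.77 to 1.96% and 1.37 to 1.48%. The 27 small subunit genes took 5.83 to 6.11% in the hybrid, against 5.485 to 5.74% for the co-culture. Fewer cells of a kind and less RNA per cell cannot be told apart in such bulk samples.

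Single members were tested with edgeR's quasi-likelihood test on TMM-scaled counts, with a Benjamini-Hochberg adjusted p under 0.05 over the 2793 genes that averaged 10 reads or more per deposited library in either group. Of 36 members tested, 26 were higher in the hybrid, 2 were lower and 8 did not pass. Over all genes tested 61.3% passed, 29.4% as higher and 31.9% as lower. RPL34A, RPL39 and RPL6A passed the read minimum through the hybrid only and so had to be higher there. Among the 33 members with a mean of 10 reads in both groups, 23 were higher and 2 lower, where 28% of 2467 such genes were higher and 32.2% lower. The median log2 fold, hybrid over co-culture, was 0.32 for these members and -0.0083 for these genes. In 14 of the 33 every hybrid summed library was above every co-culture one, where 13.5% of the 2467 genes did so, and in 1, RPL14A, every hybrid library was below. Such a separation in either direction was seen in 31.1% of these genes. Over all 36 tested members, library totals in place of TMM scaling gave 28 higher and 0 lower. They moved the median of all genes to 0.12 and called 38.3% of all genes higher and 24.8% lower. With the trend of the fold on the adenine share of the coding sequence removed the members' counts were 29 and 2, where 26.9% of all genes were higher and 25.9% lower.

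**Figure D1:**
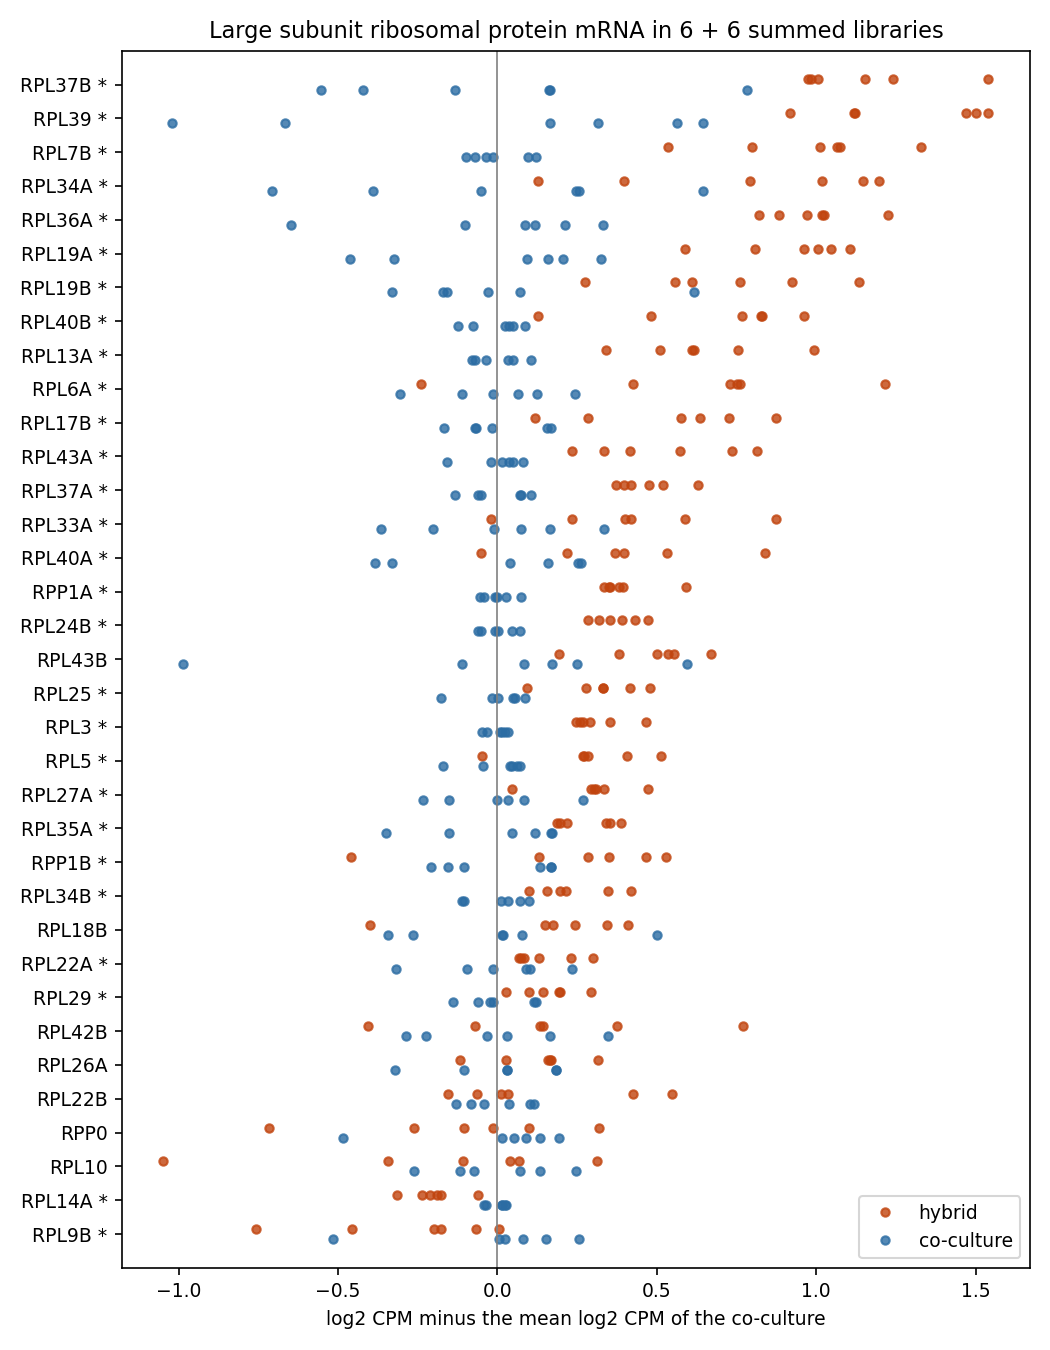
The log2 CPM of 35 tested members in each of 6 hybrid (red) and 6 co-culture (blue) summed libraries, minus the co-culture mean of that member; stars mark edgeR adjusted p under 0.05. Most members lie to the right of 0 in the hybrid, with RPL37B at the top and RPL9B and RPL14A at the bottom.

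Of the 3 tested stalk genes, 2 rose, where 28% of genes with a mean of 10 reads in both groups did. RPP0 encodes uL10, the base of the stalk, at chrXII:805887-806825. It had 937, 1478 and 1921 CPM (lowest, median and highest) in the hybrid, against 1101, 1619 and 1761 in the co-culture, and the groups overlapped. Its log2 fold was -0.10 ± 0.07 (SE, edgeR adjusted p = 0.209), and it was 0.0089 with library totals and 0.42 (adjusted p = 4.14e-07) with the adenine trend removed. Without hybrid summed library 5 it was called lower, at -0.15. RPP1A, which encodes a P1 protein of the stalk, had 4579, 4688 and 5480 in the hybrid, against 3499, 3624 and 3827 in the co-culture, without overlap. It rose by 0.40 ± 0.04 on the log2 scale (edgeR adjusted p = 5.39e-14). RPP1B, the other P1 gene, had 774, 1326 and 1536 in the hybrid, against 921, 1078 and 1196 in the co-culture, and a log2 fold of 0.24 ± 0.07 (edgeR adjusted p = 0.00196). Its groups overlapped through hybrid summed libraries 5, the lowest of the 12, and 6, and the call was lost with DESeq2. With the adenine trend removed the log2 folds were 0.99 for RPP1A and 0.95 for RPP1B. RPP2A, for a P2 protein, was not tested, with 8 reads in the hybrid, against 7 in the co-culture.

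Of the 6 members with no paralog and with a mean of 10 reads in both groups, 4 were higher in the hybrid with 0 lower. RPL10 and RPP0 did not pass. Over all genes with such reads 28% were higher and 32.2% lower. RPL39 also has no paralog, and passed the read minimum through the hybrid only. RPL3 encodes uL3, which reaches the peptidyl transferase centre. It had 10360, 10600 and 12060 CPM in the hybrid, against 8443, 8804 and 8940 in the co-culture, a log2 rise of 0.32 ± 0.04 (edgeR adjusted p = 8.76e-12) with no overlap. RPL25, whose protein uL23 sits at the mouth of the exit tunnel and binds the signal recognition particle, had 4389, 5178 and 5730 in the hybrid, against 3644, 4193 and 4367 in the co-culture. The groups were separate and the log2 fold was 0.32 ± 0.04 (edgeR adjusted p = 9.90e-10). RPL5 encodes uL18, which carries the 5S rRNA into the subunit. Its log2 fold was 0.29 ± 0.05 (edgeR adjusted p = 2.15e-06), with 1260, 1582 and 1861 in the hybrid, against 1158, 1342 and 1371 in the co-culture, and hybrid summed library 1 fell among the co-culture values. With the adenine trend removed the folds of RPL3 and RPL5 were 0.59 and 0.52.

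RPL39 encodes eL39, a very small protein of the exit tunnel wall, at chrX:75933-76474. It had 54.6, 71.4 and 84.0 CPM in the hybrid, against 14.2, 34.1 and 45.1 in the co-culture, from 184 and 82 reads, and the groups did not overlap. RPL39 met the read minimum through the hybrid only and so had to be higher there. Its log2 fold was 1.07 ± 0.19 (edgeR adjusted p = 2.30e-06), but 0.17 (adjusted p = 0.477) with the adenine trend removed. Its coding sequence is 43.59% adenine, where the median of the tested genes was 32.59%, and across 2780 genes the fold and the adenine share had a Spearman correlation of 0.553. RPL29, for eL29 and with an adenine share of 36.67%, passed with a log2 fold of 0.14 ± 0.05 (edgeR adjusted p = 0.0148) and turned to -0.21 (adjusted p = 0.000324) with the trend removed. RPL10 encodes uL16, which joins the particle last, in the cytoplasm, before it takes up translation. It had 313, 632 and 803 in the hybrid, against 540, 646 and 767 in the co-culture, with a log2 fold of -0.15 ± 0.08 that did not pass (edgeR adjusted p = 0.102). It was called lower without hybrid summed library 1 or co-culture 5, at -0.21 and -0.19, and with the libraries unsummed.

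Beside RPL39, the largest rises were in duplicated members. RPL37B, for the zinc-binding protein eL37, lies at chrIV:1450198-1450853. It had 123, 133 and 182 CPM in the hybrid, against 42.7, 63.7 and 108 in the co-culture, with no overlap and a log2 fold of 1.17 ± 0.15 (edgeR adjusted p = 2.67e-10). Its protein is 93.18% identical to that of RPL37A, which rose by 0.47 ± 0.05 (edgeR adjusted p = 9.63e-13), or by 0.82 with the adenine trend removed. RPL36A, for eL36, at chrXIII:651145-651910, had 117, 132 and 155 in the hybrid, against 42.3, 71.03 and 83.3 in the co-culture. The groups were separate and the log2 fold was 0.95 ± 0.14 (edgeR adjusted p = 1.96e-08). RPL7B, for uL30, at chrXVI:173152-174702, had 238, 338 and 413 in the hybrid, against 154, 162 and 179 in the co-culture, and a log2 fold of 0.98 ± 0.09 (edgeR adjusted p = 5.41e-15). An intron of RPL7B holds the small nucleolar RNA gene SNR59, whose reads cannot be told from those of its host where they overlap.

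RPL19A, for eL19, a protein that bridges to the small subunit, had 93.5, 123 and 134 CPM in the hybrid, against 45.1, 68.0 and 78.1 in the co-culture. Its groups were separate, with a log2 fold of 0.81 ± 0.15 (edgeR adjusted p = 3.61e-06). Its copy RPL19B, which encodes the same protein, rose by 0.73 ± 0.16 (edgeR adjusted p = 7.85e-05), with overlap through co-culture summed library 1. RPL40B makes eL40 as a fusion to ubiquitin, from which it is cleaved. It had 491, 781 and 875 in the hybrid, against 413, 460 and 478 in the co-culture, without overlap, and a log2 fold of 0.67 ± 0.07 (edgeR adjusted p = 6.50e-13). RPL13A, for eL13, followed with 726, 878 and 1142 in the hybrid, against 543, 573 and 617 in the co-culture and a log2 fold of 0.66 ± 0.06 (edgeR adjusted p = 8.09e-15). RPL34A and RPL6A passed with 0.97 ± 0.22 and 0.65 ± 0.19, with groups that overlapped. Both met the read minimum through the hybrid only and so had to be higher there.

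Only RPL14A and RPL9B were called lower, by small amounts. RPL14A, for eL14, had 2231, 2417 and 2663 CPM in the hybrid, against 2695, 2804 and 2828 in the co-culture, and the groups were just separate. Its log2 fold was -0.19 ± 0.04 (edgeR adjusted p = 7.04e-05). With library totals it was -0.08 and did not pass, and with the adenine trend removed it was 0.24 (adjusted p = 8.64e-07), a turn in direction. RPL9B, for uL6, had 317, 471 and 538 in the hybrid, against 375, 555 and 640 in the co-culture, which overlapped. Its log2 fold was -0.26 ± 0.08 (edgeR adjusted p = 0.00273), and -0.15 with no call under library totals.

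The remaining called members rose by less. RPL17B, RPL43A, RPL33A, RPL40A, RPL24B, RPL27A, RPL35A, RPL34B and RPL22A had log2 folds of 0.54, 0.51, 0.44, 0.41, 0.37, 0.27, 0.27, 0.24 and 0.21 and edgeR adjusted p-values from 2.46e-11 to 0.0370. With the adenine trend removed the folds of RPL43A, RPL33A, RPL24B, RPL27A and RPL22A were 0.95, 0.72, 0.19, 0.47 and 0.33. The RPL22A call was lost with DESeq2 and without any of hybrid summed libraries 4 and 6 or co-culture ones 2 and 4. That of RPL27A was lost without hybrid 4 or co-culture 2 or 5. RPL35A lost its call without hybrid 6 or co-culture 5, and its fold was -0.15 with the adenine trend removed. RPL18B, RPL22B, RPL26A, RPL42B and RPL43B did not pass, with log2 folds between 0.12 and 0.35. RPL43B and RPL26A passed as higher with library totals, at 0.46 and 0.23, and with the adenine trend removed, at 0.59 and 0.27. RPL18B passed at 0.52 with the trend removed and at 0.37 without co-culture summed library 5. RPL26A also passed without hybrid 2 or co-culture 3 or 5, and RPL43B without hybrid 5 or co-culture 3 or 4. The 8 untested members, all with few reads, were RPL6B, RPL14B, RPL20B, RPL21B, RPL26B, RPL27B, RPL36B and RPP2A. RPL14B had 91 reads in the hybrid, against 70 in the co-culture, and RPL6B 53 and 24.

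Close copies, whose reads may be shared, were left out in a further count. This left 12 members with no paralog, or with one under 95% identical in protein, and with a mean of 10 reads in both groups. Of these, 9 were higher and 0 lower by edgeR, with a median log2 fold of 0.27. Over all genes with such reads 28% were higher and 32.2% lower. With the adenine trend removed 9 were higher and 1 lower, where 26.9% of all tested genes were higher and 25.9% lower. Of the 14 members with the Rap1 letters and a mean of 10 reads in both groups, 9 were higher and the median log2 fold was 0.30. Of the 19 without the letters, 14 were higher and the median was 0.32.

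The same comparison was then made on each genome separately, which asks whether both alleles were higher in the hybrid. Of 33 members with at least 100 reads in each group, 19 were higher and 0 lower on the BY allele, where 50.2% of all gene pairs passed, 24.9% as higher and 25.3% as lower. On the RM allele 21 were higher and 5 lower, where 47.2% of all pairs passed, 24.1% as higher and 23.1% as lower. The median log2 fold of the members was 0.44 on BY and 0.31 on RM, against 0.0028 and 0.037 over all gene pairs. The 5 members lower on the RM allele were RPL18B at -0.76 ± 0.25, RPL9B at -0.58 ± 0.10, RPL14A at -0.31 ± 0.05, RPL10 at -0.20 ± 0.09 and RPP0 at -0.18 ± 0.06. RPL10 and RPP0 no longer passed with library totals or DESeq2. RPL10 also lost its call without any of hybrid summed libraries 4, 5 and 6 or co-culture ones 1, 2 and 3, and RPP0 without hybrid 1 or 2 or co-culture 3 or 4. The adenine trend was removed from the totals only, so the folds of single alleles still carry it. In the totals its removal gave 0.24 for RPL14A, 0.42 for RPP0 and 0.079 for RPL10. RPL9B was then at -0.20 and RPL18B at 0.52.

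On the BY allele RPL7B rose most among members with separate groups, by 1.14 ± 0.13 (edgeR adjusted p = 4.60e-13). RPL13A followed at 0.96 ± 0.08, with 692, 867 and 990 CPM in the hybrid, against 417, 431 and 513 in the co-culture. RPL24B, RPL17B, RPL43A and RPP1A had 0.63, 0.60, 0.58 and 0.57. On the RM allele RPL37B rose most, by 1.46 ± 0.21 (edgeR adjusted p = 1.93e-09), with 91.2, 123 and 167 in the hybrid, against 26.6, 41.3 and 81.9 in the co-culture. RPL36A rose by 1.23 ± 0.19 on RM, with 127, 152 and 190 in the hybrid, against 27.9, 71.9 and 79.5 in the co-culture. RPL19B, RPL40B, RPL37A and RPP1A followed with 0.99, 0.66, 0.51 and 0.31. RPP1A was the only member among the 6 largest on both genomes by this rule, which leaves out members whose groups overlapped. Called higher on both genomes, overlap aside, were RPL3, RPL5, RPL7B, RPL13A, RPL17B, RPL19A, RPL24B, RPL25, RPL34B, RPL36A, RPL37A, RPL37B, RPL40B, RPL43A and RPP1A. Called higher on BY only were RPL18B, RPL22B, RPL33A and RPP1B. On RM only they were RPL19B, RPL27A, RPL29, RPL35A, RPL40A and RPL42B. A pass on either allele beside a miss on the other does not show that the alleles differed. By the test of the difference, given below, RPL18B, RPP1B and RPL42B passed. The others called on a single genome did not (edgeR adjusted p from 0.141 to 0.936). With a summed library left out, the call was lost in 8 of 12 fits for RPL29. It was lost in 6 for RPL22B, 5 for RPL42B and 3 for RPL33A.

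Inside the hybrid both alleles sit in the same nucleus, so a difference between them is read here as one in cis. Reads shared with a near-identical copy could also move the ratio, and this was not tested. Members described below with such a copy include RPL42B, RPL7B and RPL14A, with coding sequences 98.13%, 96.73% and 96.4% identical to the copy. RPL18B, RPL19B and RPL9B are others, at 95.37%, 94.04% and 93.75%. The same limit holds for the co-culture ratios. RM was higher than BY in 6 of 33 members and lower in 5 by the joint edgeR fit, where 20.1% of 2661 gene pairs passed, 10.4% as higher and 9.70% as lower. The median log2 ratio, RM over BY, was 0.06 in the members and -0.0004 over all pairs. RPL18B stood farthest from equality. Its RM allele had 52 reads and its BY allele 167, an RM share of 23.7% (95% exact interval 18.3 to 29.9%, counting error only). The RM allele was lower in 6 of 6 summed libraries, with scaled log2 ratios of -2.81, -1.68 and -0.73 (lowest, median and highest), and the fitted ratio was -1.67 ± 0.21 (edgeR adjusted p = 1.90e-13).

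Other cis differences were small. RPL9B was at -0.44 ± 0.09 (edgeR adjusted p = 5.13e-06), with RM lower in 6 of 6 libraries. RPL29 and RPL25 were at -0.20 ± 0.05 and -0.15 ± 0.03, also with RM lower in 6 of 6. RPL7B was at -0.46 ± 0.10, with RM lower in 5 of 6. In the other direction RPL19B was at 0.62 ± 0.19 (edgeR adjusted p = 0.00678), from 151 RM and 98 BY reads, and RPP0, RPL5 and RPL24B were at 0.28 ± 0.05, 0.25 ± 0.05 and 0.21 ± 0.04, each with RM higher in 6 of 6. The RPL19B call was lost with DESeq2 and without hybrid summed library 6, where the ratio was 0.46, and the RPL29 call with DESeq2. RPL22A and RPL3 were at 0.36 ± 0.12 and 0.06 ± 0.02, with RM higher in 5 of 6. The RPL22A call was lost with DESeq2 and without hybrid summed library 3 or 6, and the RPL3 call without hybrid 3 or 4.

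In the co-culture each allele sits in its own strain, so the RM over BY ratio compares the parents, after scaling that sets the typical gene pair to 1. RM took 54.7 to 55.0% of all reads of a co-culture summed library and 56.8 to 58.4% of the members' reads. RM was higher in 15 members and lower in 4 by edgeR, where 40.3% of all pairs passed, 21.8% as higher and 18.5% as lower. The median log2 ratio was 0.14 in the members and 0.014 over all pairs. With library totals, which moved the median of all pairs to -0.062, the members' counts were 12 and 5 and their median 0.06, where 17.6% of all pairs were higher and 23.4% lower. DESeq2 called 10 members higher and 3 lower, where it called 15.3% of all pairs higher and 13.2% lower. The largest ratios with RM higher in 6 of 6 libraries were RPL22B at 0.75 ± 0.15, RPL13A at 0.64 ± 0.08, RPL24B at 0.62 ± 0.05, RPP0 at 0.59 ± 0.05, RPL5 at 0.52 ± 0.05 and RPP1A at 0.37 ± 0.03. RPL42B, for eL42 near the tRNA exit site, was lower in RM at -0.96 ± 0.21 (edgeR adjusted p = 3.12e-05), from 72 RM and 122 BY reads. RPL37B was lower in RM at -0.83 ± 0.23 (edgeR adjusted p = 0.00141), and both were lower in 6 of 6 libraries. All 3 tested stalk genes were higher in RM.

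**Figure D2:**
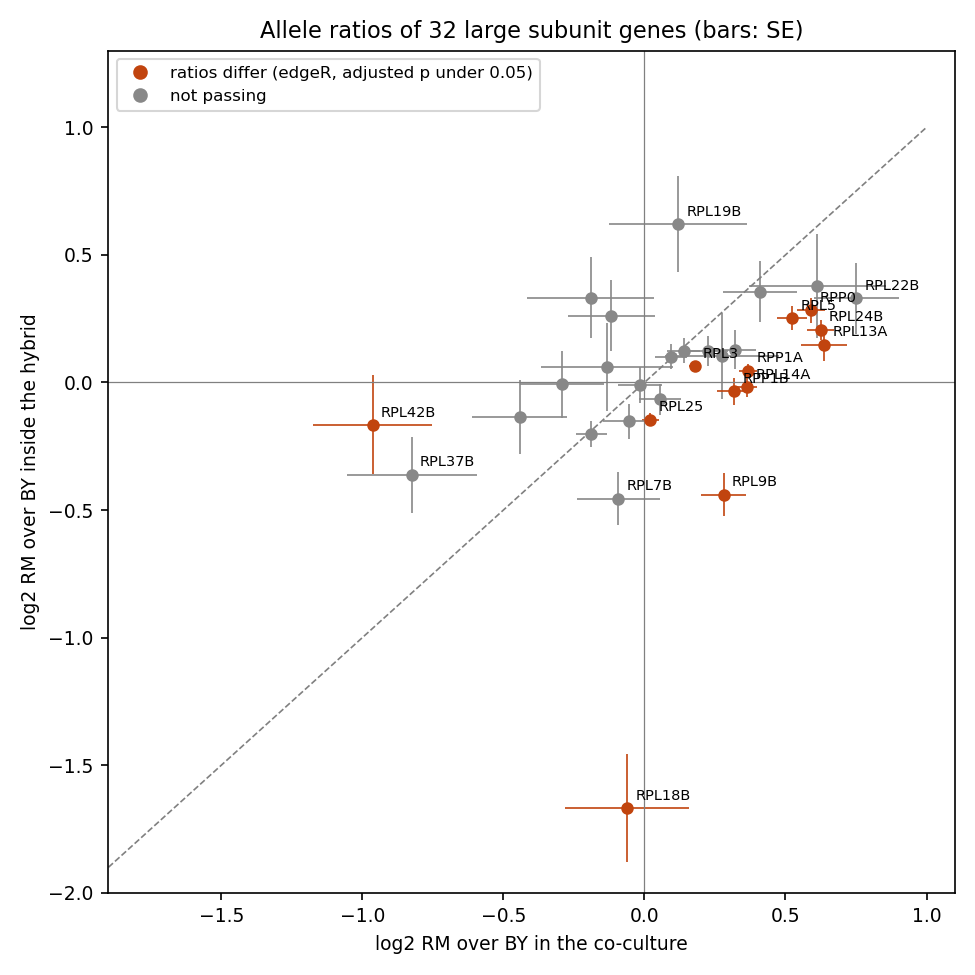
The log2 ratio of RM over BY inside the hybrid (vertical) against that in the co-culture (horizontal) for 32 members, each from the joint edgeR fit with its SE; the dashed line marks equal ratios. Red members have ratios that differ between the groups, and RPL18B lies lowest, at -1.67 in the hybrid, against -0.06 in the co-culture.

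The difference between the ratios, co-culture minus hybrid, tests whether the parental difference is kept when both genomes share a nucleus, and is called trans. The limit on reads shared with a near-identical copy holds here too. By the same fit it was positive in 11 members and negative in 1, where 20.7% of all pairs passed, 12% as positive and 8.76% as negative. The median was 0.12 in the members and 0.0064 over all pairs, and with library totals 8 were positive, 1 negative and the medians 0.03 and -0.088, where 8.53% of all pairs were positive and 13.3% negative. In 7 of the 33 members the co-culture ratios all lay above the hybrid ones, where 6.01% of all pairs did so, and in 0 they all lay below, where 2.89% did. A positive value means that RM was higher relative to BY in the co-culture than in the hybrid. Hybrid and co-culture ratios of a gene enter this difference, so it is not independent of the values above.

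RPL18B had the largest difference, 1.61 ± 0.31 (edgeR adjusted p = 4.49e-06). In the co-culture it had 91 RM and 82 BY reads, an RM share of 52.6% (44.9 to 60.2%), and scaled log2 ratios of -0.70, -0.02 and 0.61, all above those of the hybrid. Its BY allele had 69.3, 132 and 156 CPM in the hybrid, against 56.7, 72.2 and 108 in the co-culture, and its RM allele 18.2, 35.8 and 68.6 in the hybrid, against 43.9, 82.0 and 97.6 in the co-culture. The BY allele was higher in the hybrid by 0.81 ± 0.19 (edgeR adjusted p = 0.000268) and the RM allele lower by 0.76 ± 0.25 (edgeR adjusted p = 0.00855), with overlap on both alleles. The total of both alleles did not pass, with a log2 fold of 0.23 ± 0.16.

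RPL9B had the next largest positive difference, 0.72 ± 0.12 (edgeR adjusted p = 2.38e-08). Its scaled log2 ratios were 0.01, 0.24 and 0.65 in the co-culture and -0.98, -0.51 and -0.22 in the hybrid. The sign of the ratio was opposite in the groups, with RM higher in 6 of 6 co-culture libraries and lower in 6 of 6 hybrid ones. The lowest co-culture ratio was near 0, and library totals moved the parental median of all pairs from 0.014 to -0.062. The 6 of 6 in the co-culture may therefore rest on the scaling. The parental call of RPL9B was lost in 1 of 12 fits with a summed library left out. RPL24B, for eL24, which joins the subunit late and reaches towards the small subunit, differed by 0.42 ± 0.06 (edgeR adjusted p = 5.15e-10), with 0.48, 0.62 and 0.77 in the co-culture and 0.05, 0.21 and 0.36 in the hybrid. RPL14A differed by 0.38 ± 0.05 (edgeR adjusted p = 8.71e-12), with 0.27, 0.29 and 0.56 in the co-culture and -0.13, -0.003 and 0.18 in the hybrid. None of these 3 members' groups overlapped.

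The 3 tested stalk genes all passed. RPP1B, RPP1A and RPP0 differed by 0.35 ± 0.08, 0.32 ± 0.04 and 0.31 ± 0.07 (edgeR adjusted p = 0.000117, 6.47e-13 and 0.000127), with separate groups in RPP1A. RPL13A differed by 0.49 ± 0.10 (edgeR adjusted p = 3.14e-05), and its ratios overlapped. RPL5, RPL25 and RPL3 differed by 0.27, 0.17 and 0.11, and with library totals these fell short of the threshold, at 0.18, 0.07 and 0.02. RPL5 also lost its call with DESeq2. RPL42B was the only negative difference, at -0.80 ± 0.29 (edgeR adjusted p = 0.0324), with ratios of -1.52, -0.94 and -0.31 in the co-culture and -0.91, -0.19 and 0.18 in the hybrid. Its call was lost with DESeq2, with no filter on low counts, and without any of summed libraries 2, 4 and 6 of either group.

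**Figure D3:**
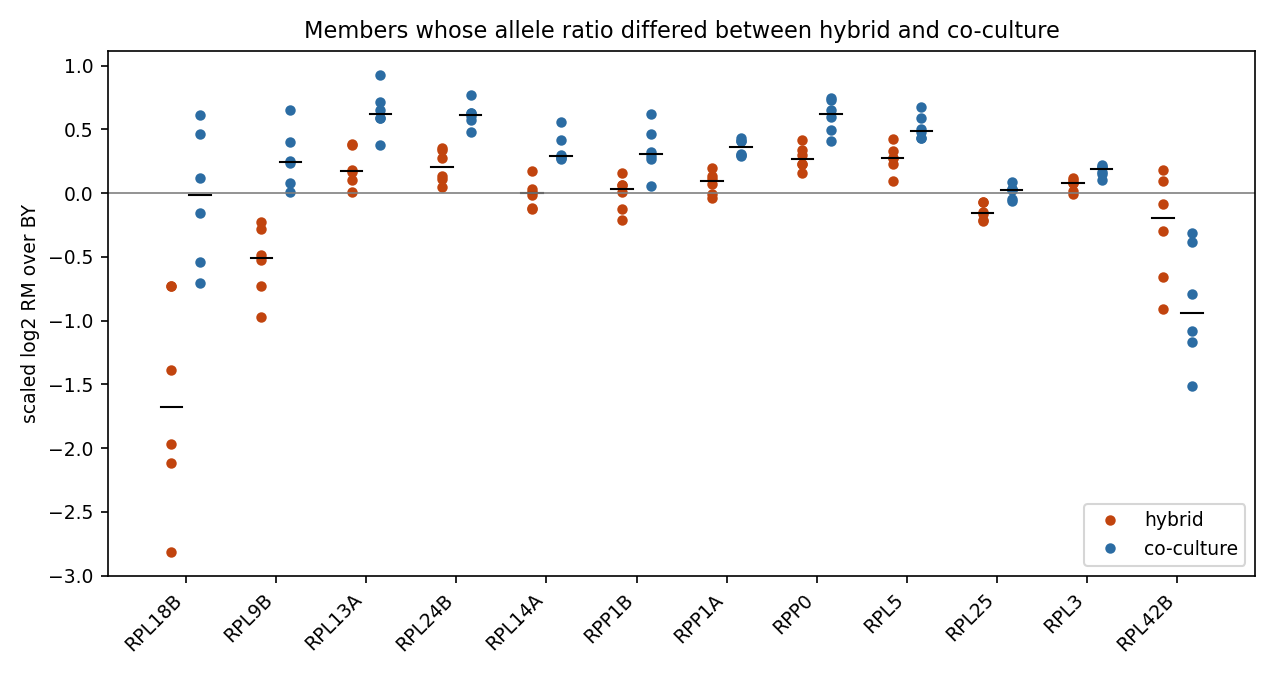
Scaled log2 RM over BY in each hybrid (red) and co-culture (blue) summed library for the 12 members whose ratio differed between the groups, with the median as a bar. The co-culture median lies above the hybrid one except in RPL42B, and in 7 members the groups do not overlap, RPL18B and RPL9B among them.

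Whether the A and B copies changed their balance was tested on the log2 ratio of A over B reads, which needs no library scaling. Of 13 pairs with both copies in the files, 8 had enough reads, and the exact 2-sided permutation test over 924 splits allows a smallest p of 0.00216. After adjustment over the 8 pairs 0 passed, and 1 pair had an unadjusted p under 0.05. That pair, RPL37, had a log2 ratio of 3.39 ± 0.25 in the hybrid, against 4.05 ± 0.51 in the co-culture (SD, n = 6 each), a difference of -0.67 ± 0.23 (SE, exact permutation p = 0.0238, adjusted 0.19). Its hybrid libraries ran from 2.93 to 3.70 and its co-culture ones from 3.24 to 4.63, so they overlapped. RPL34 had -4.84 ± 0.35 in the hybrid, against -5.36 ± 0.51 in the co-culture, a difference of 0.53 ± 0.25 (exact permutation p = 0.0563, adjusted 0.225). RPL34A had 136 reads in the hybrid, against 64 in the co-culture, and met the read minimum through the hybrid only, so the direction of this difference was in part set by the minimum.

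The other pairs described here differed by less. RPL40 differed by -0.28 ± 0.16 and RPL19 by 0.20 ± 0.23. RPP1, RPL43 and RPL22 differed by 0.18 ± 0.20, 0.06 ± 0.21 and 0.01 ± 0.18, and a p that misses the threshold does not show that these balances were equal. With the 12 libraries of each group left unsummed 2 pairs passed, RPL37 and, under that same limit, RPL34, and with BY reads alone 1 did, RPL40. Without co-culture summed library 4, RPL37 passed at -0.83. In the 5 untested pairs RPL14, RPL26, RPL27, RPL36 and RPL6, the B copy had 28 to 93 reads in the hybrid, against 24 to 70 in the co-culture.

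**Figure D4:**
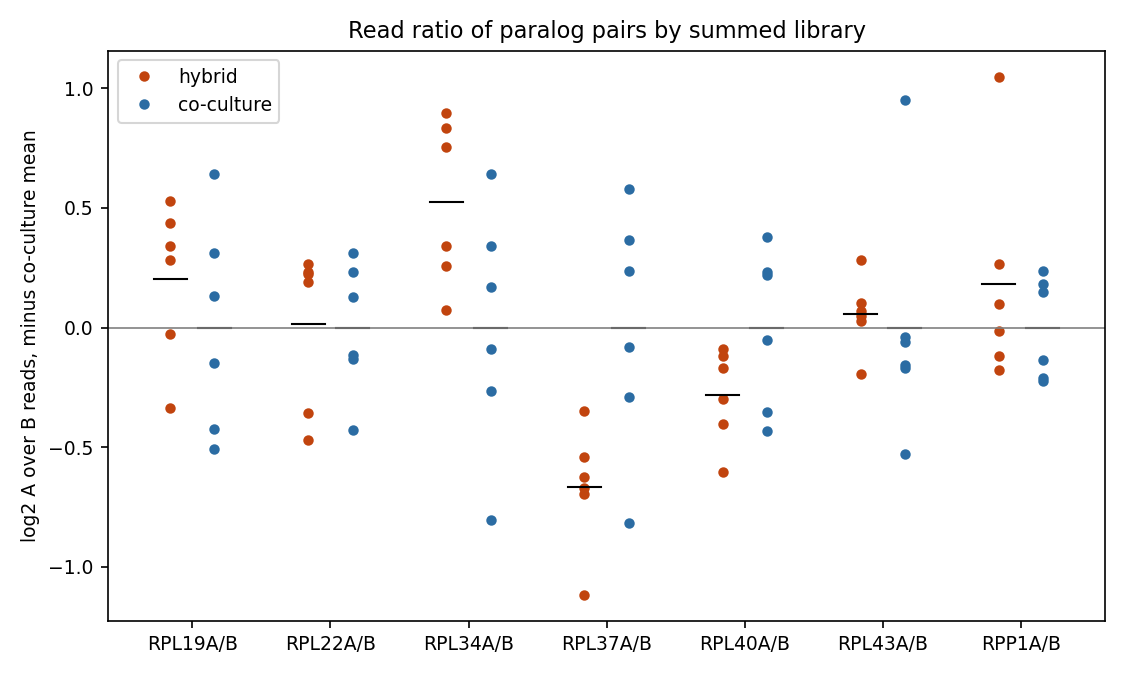
The log2 ratio of A over B reads in each hybrid (red) and co-culture (blue) summed library for 7 paralog pairs, minus the co-culture mean, with group means as bars. RPL37 lies lowest in the hybrid and RPL34 highest, and the groups overlap in each pair shown.

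Other genes of ribosome production are given as counts beside the members. Only genes with a mean of 10 reads in both groups are counted, of which 28% were higher and 32.2% lower over the whole table. Assembly factors of the large subunit were higher in 22 of 23 and lower in 0 by edgeR, with a median log2 fold of 0.49, and higher in 19 with the adenine trend removed. EBP2 and RPF2, which act on the pre-rRNA particles, had 3.21 ± 0.10 and 1.31 ± 0.06. Small subunit ribosomal protein genes were higher in 6 of 16 and lower in 5, with a median of -0.05, and 13 were higher and 0 lower with the adenine trend removed. Mitochondrial large subunit genes were higher in 6 of 14 and lower in 0, with a median of 0.24, and 11 were higher with library totals and 3 with the adenine trend removed.

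The list of chaperones and escorts had 6 of 7 higher. Of its named members LTV1 at 1.78 ± 0.07 and TSR2 at 0.75 ± 0.08 act on the small subunit, and ZUO1, at 0.43 ± 0.06, works on the nascent chain at the tunnel exit. Among 10 tested regulators of ribosomal protein genes, 3 were higher and 0 lower, a share close to the 28% of all genes. TOD6, a repressor of ribosome biogenesis genes, rose by 0.84 ± 0.07, IFH1, a coactivator at the promoters, by 0.58 ± 0.11, and RAP1 by 0.55 ± 0.16. SFP1, FHL1, HMO1, SCH9, TOR2, DOT6 and UTP22 had folds of -0.02, -0.11, 0.20, 0.09, -0.10, -0.04 and 0.06 and did not pass.

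Some of the 10 regulators differed between alleles, at counts over both directions near the shares over all pairs. They are not read as a trait of the regulators. In the co-culture RM was higher in 4 and lower in 0, where 40.3% of all pairs passed, 21.8% as higher and 18.5% as lower. The 4 were SFP1 at 0.74 ± 0.09, SCH9 at 0.73 ± 0.24, TOD6 at 0.49 ± 0.12 and HMO1 at 0.45 ± 0.18. In the hybrid RM was higher in 2 and lower in 0, where 20.1% of all pairs passed, 10.4% as higher and 9.7% as lower. The 2 were HMO1 at 0.67 ± 0.16 and DOT6 at 0.45 ± 0.08. The ratio differed between the groups in 3, where 20.7% of all pairs passed. TOD6, SFP1 and DOT6 differed by 0.65 ± 0.14, 0.54 ± 0.12 and -0.30 ± 0.11, all with edgeR adjusted p under the threshold. In total expression, hybrid against co-culture, translation elongation factors were higher in 2 of 4 and lower in 2. Over all genes with a mean of 10 reads in both groups 28% were higher and 32.2% lower.

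Members also differed among libraries of the same group. Between hybrid summed libraries 5 and 1, 4 members differed by more than 2-fold, with log2 differences (5 minus 1) for RPL6A of -1.43, for RPL10 of -1.36, for RPL34A of -1.05 and for RPP0 of 1.03. RPP0 had 1921 CPM in library 5 and 937 in library 1, and RPL10 had 313 and 803. RPL6A and RPL34A had a mean under 100 CPM. Among members with a mean of at least 100 CPM, 2 of 27 differed as much, where 47 of 1847 such genes did. Deviations of 1847 genes from their group mean had Spearman correlations with the GC share of the coding sequence from -0.361 in hybrid summed library 1 to 0.404 in library 5, against -0.144 to 0.140 in the co-culture. Over the 27 members with such a mean the change between these libraries and GC had a Spearman correlation of 0.0904, and over all 1847 genes 0.446. Without both libraries, a choice made after seeing the data, 27 of 36 members were higher in the hybrid with 2 lower, where 28.6% of all genes were higher and 31.8% lower. The difference in allele ratio was positive in 11 of 33 and negative in 1, where 10.6% of all pairs were positive and 8.64% negative.

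**Figure D5:**
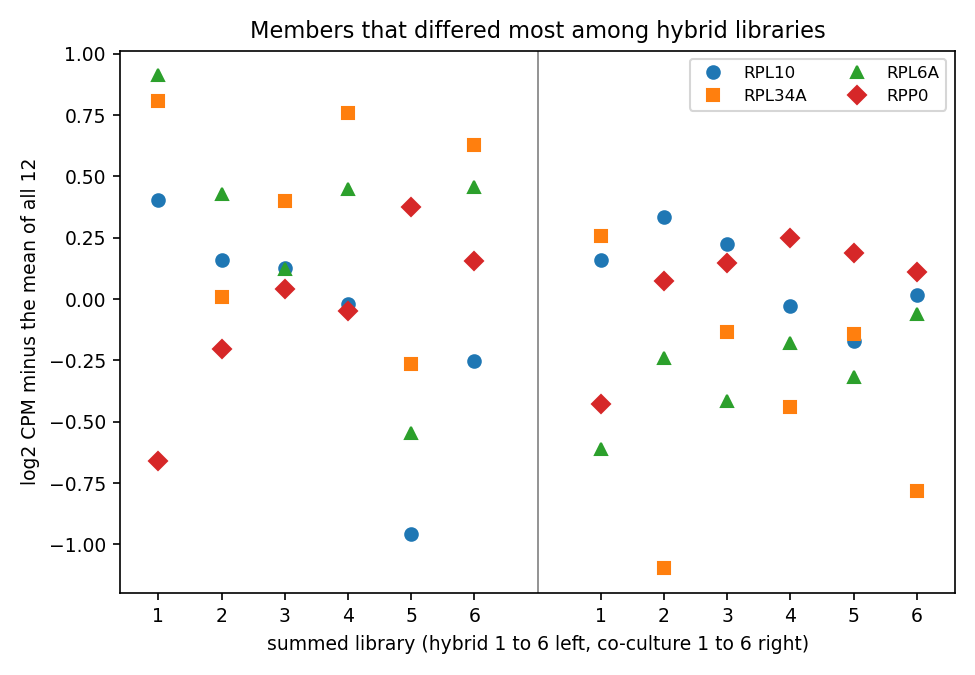
The log2 CPM of the 4 members that differed by more than 2-fold between hybrid summed libraries 1 and 5, minus the mean of all 12, in hybrid libraries (left) and co-culture libraries (right). RPL10, RPL6A and RPL34A are lowest of the hybrid in library 5, and RPP0 is highest there.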

How the data were processed

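RNA of 12 hybrid and 12 co-culture libraries was selected and reverse transcribed with oligo-dT, per the labels' protocols. The deposited files hold raw counts of reads per gene pair, separately for the BY and RM allele, with no normalisation. No source used here names the aligner, the build or the read filters. Gene names, coding sequences and promoters came from RefSeq's R64 assembly, which matched 4325 of 4442 gene pairs. The members and gene lists were chosen with earlier results of these data known.

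Libraries of a group were summed by complete linkage where a chi-square test of their allele counts found no more than counting noise (genes with at least 20 reads, p of at least 0.05). In the hybrid this joined libraries 3 and 5, libraries 4, 6, 7 and 8, and libraries 10, 11 and 12 as summed libraries 3, 4 and 6, with libraries 1, 2 and 9 alone as 1, 2 and 5. In the co-culture library 1 stood alone, and libraries 2 to 4, 5 and 6, 7 and 8, 9 and 12, and 10 and 11 became summed libraries 2 to 6. Totals were tested with edgeR 4.0.16 in R 4.3.3 (quasi-likelihood, TMM). Allele ratios came from a joint edgeR fit with the summed library as a block, for gene pairs with at least 100 reads in each group. Paralog ratios used a pseudocount of 0.5 reads and scipy 1.17.1. P-values were Benjamini-Hochberg adjusted with a threshold of 0.05. CPM values are counts scaled by TMM-adjusted library totals. Intervals on read shares are exact binomial.

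Named members were the 6 largest called changes in each direction whose groups did not overlap (or whose libraries lay on the same side of 0), the stalk genes and the tested pairs; others are given with fold and test. Counts over genes with a mean of 10 reads in both groups were added after seeing the data. Values of 1 member and its pair enter the totals but are not reported here individually. The procedure was tested on simulated data. Alternatives were DESeq2 1.42.0, library totals, no read filter, unsummed libraries, the library number as a block, 1 allele only, and leaving out each summed library. For the totals, the adenine trend was also removed.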

Additional observations from a re-analysis of the deposited data

Results flagged for a closer look

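In 3 of 70 member-and-group sets of 6 summed libraries, 1 library lay far from the others, and chance alone marks about 1 set in 20. RPP1A had 5480 CPM in hybrid summed library 5, where the other libraries had 4579 to 4770. RPP0 had 1101 in co-culture library 1, where the others had 1557 to 1761, and RPL19B had 90.15 there, where the others had 46.83 to 61.82.

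The RM over BY ratio differed between co-culture and hybrid, by the edgeR test of the difference itself, in 12 members. The log2 differences, co-culture minus hybrid, were 1.61 for RPL18B, 0.72 for RPL9B, 0.49 for RPL13A, 0.42 for RPL24B, 0.38 for RPL14A, 0.35 for RPP1B, 0.32 for RPP1A, 0.31 for RPP0, 0.27 for RPL5, 0.17 for RPL25, 0.11 for RPL3 and -0.80 for RPL42B.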

How the results depend on the processing

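In total expression the members called higher numbered 24 to 29 under the alternatives over 36 members, and 23 of 33 with a mean of 10 reads in both groups. Those called lower were 0 with library totals and 4 with the replicate block on unsummed libraries, and the 14 members without a close copy gave 11 higher and 0 lower, or 9 and 0 of 12 with a mean of 10 reads in both groups. Parental calls were 10 to 15 higher and 3 to 5 lower, with 10 and 3 from DESeq2. Library numbers did not pair the groups (correlations of -0.035 to 0.060, 2 of 12 best with their own number); the block gave 28 higher. Members lower on the RM allele were 3 with DESeq2 and with library totals, and 3 to 5 with a summed library left out. Negative trans calls were 0 with DESeq2 and with no filter, and 0 to 1 with a library left out; positive ones were 8 to 11. Called paralog pairs were 2 unsummed, 1 with BY reads, and 0 to 1 with a library left out. Directions turned with the adenine trend removed for RPL10 (0.079), RPL14A (0.24), RPL22B (-0.10), RPL29 (-0.21), RPL35A (-0.15) and RPP0 (0.42, and 0.0089 with library totals). With a library left out the cis ratio of RPP1B ran from -0.089 to 0.022 and the parental ratio of RPL18B from -0.19 to 0.10. The RPL22 pair was at -0.29 with BY reads. With a library left out it ran from -0.071 to 0.11, and RPL43 from -0.049 to 0.25. The cause of these changes was not tested. Read depth limits members with few reads, such as RPL18B, and 8 could not be tested.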
